A study of Mus musculus with 6 samples.

Results

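These are the accessible regions that were called in NMuMG cells at both times of BRM014 treatment and not in DMSO-treated cells. They were chosen by overlap of the deposited peak lists. After overlapping entries within each list had been merged, a region of the 30 h BRM014 list was taken if it overlapped at least 1 region of the 6 h BRM014 list by 1 bp or more and no region of the DMSO list. The rule found 1158 of the 38422 regions at 30 h, 3.01% (2.85 to 3.19%). In the whole comparison 17.9% of 30 h regions had no DMSO region and 62.9% had a 6 h region, and 7.42% of 6 h regions had no DMSO region. The 1158 are called the shared new regions here. Their presence in both treated lists and their absence from the DMSO list are what the rule fixed, so neither is a result. A region that was not called in DMSO is not thereby shown to be closed there.

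NMuMG is an established epithelial line from normal mouse mammary gland, and all samples carry the wild-type genotype. The groups were cells given BRM014 for 30 h, cells given BRM014 for 6 h and cells given the vehicle DMSO, with 2 biological replicates each. DMSO was given for 30 h going by the name of its list alone, so the 6 h group has no vehicle control of its own time. The protocol text also speaks of TGFβ, which no sample's own label carries. Accessibility was measured by ATAC-seq, and each of the 3 deposited lists was made from both replicates together, so no value here has a replicate error and no test between treatments was possible.

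SWI/SNF complexes use the energy of ATP to slide or evict nucleosomes, and in many cell types they keep enhancers open for the transcription factors that bind there. BRM014 blocks the ATPase activity of both alternative motor subunits, BRG1 (Smarca4) and BRM (Smarca2). In ATAC-seq the Tn5 transposase cuts and tags DNA that is free of nucleosomes, so a called region marks an interval where many such cuts piled up. Loss of accessible sites is the usual response to inhibition of these motors.

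Positions are those of the lists, on mouse build mm9, and serve as the names of the regions. Gene names and DNA sequence of mm9 were not used here. Relative depth, taken from the lowest background in each list, was 80.7% of DMSO at 30 h and 63.0% of DMSO at 6 h. The lists held 38422 regions at 30 h and 25922 at 6 h, against 42310 for DMSO, so the DMSO list was the deepest and longest of the 3. Shares carry 95% Wilson intervals and medians carry exact order-statistic intervals, which reflect counting alone, as if each region were independent of the others.

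The shared new regions were mostly of low to middle strength within their own lists. The strength measures were among the values that decided whether a region was called, and are given as a description. The fold enrichment, the authors' own ratio of signal to local background at the summit, ran from 1.87 to 26.4 at 30 h with a median of 11.0 and quartiles of 8.52 and 13.7. At 6 h the same regions ran from 2.70 to 25.2, with a median of 9.97 and quartiles of 8.26 and 12.1. Regions called in all 3 lists were stronger, with medians of 15.0 at 30 h and 13.7 at 6 h. The 5736 new regions of the 30 h list that lacked a 6 h region, called 30 h-only below, were weaker, with a median of 9.15.

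By quartile of fold enrichment in the 30 h list, the shared new regions numbered 365 in the weakest, 391 in the second, 295 in the third and 107 in the strongest. They made up 3.80% of the weakest quartile (3.43 to 4.20%) and 1.11% of the strongest (0.923 to 1.34%). Of the 1158, 20 lay in the strongest 10% of that list, which began at a fold enrichment of 20.6. In the 6 h list the tilt was steeper, with 542 in the weakest quartile and 29 in the strongest. The deposited score, which tops out at 1000, stood at that maximum for 409 of the 1158 at 30 h, for 116 at 6 h and for 65 at both times. At 30 h 35.3% of the shared new regions stood at the maximum (32.6 to 38.1%), against 12.2% of 30 h-only regions (11.4 to 13.0%). Both shares were far below the 62.4% of all 30 h regions. At 6 h the share was 10.0% (8.42 to 11.9%), against 57.2% of all 6 h regions.

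The number of fragments stacked at a summit, its pileup, was recovered from the deposited fold enrichment and p-value of each entry. It had a median of 60 at 30 h, with quartiles of 47 and 81, and a median of 41 at 6 h, with quartiles of 33 and 54. Scaled to the depth of the DMSO list these medians came to 74.3 from 30 h and 65.1 from 6 h. The DMSO list also held regions below that level, though the 6 h median fell within its lowest quartile. Local background enters a call too, so pileup alone does not say which regions the DMSO list could have held. The lowest 10% of DMSO regions ended at a pileup of 47, the lowest quartile at 70, and the median was 129. Of the 1158 shared new regions, 1060 had a scaled 30 h pileup of at least 47, 91.5% (89.8 to 93.0%), and 647 had one of at least 70, 55.9% (53 to 58.7%). From both times at once, 967 were at or above 47 and 390 at or above 70. Few were as strong as a typical DMSO region: 133 reached the DMSO median of 129 from 30 h, 11.5% (9.77 to 13.4%), 97 did so from 6 h, and 62 did so from both. In settings that also cut the DMSO list, by length or by score, the regions and the DMSO median both changed. The share from 30 h was then 4.62% of 2662 regions with lists cut to equal length. It was 21.7% of 272 regions with a score of 1000 in every list. For 30 h-only regions the share that reached the DMSO median of 129 was 3.84% (3.37 to 4.36%).

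The 12 shared new regions with the highest geometric mean of the 2 fold enrichments lay on 9 chromosomes, and they show what the strong end of the class looks like. The first was at chr12:92308707-92309391, with a fold enrichment of 21.1 at 30 h and 22.8 at 6 h. Its pileup was 98 at 30 h and 84 at 6 h, which came to 121 and 133 at the depth of the DMSO list, near the median of that list. The nearest DMSO region lay 40377 bp away and was itself missing at both BRM014 times.

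The region chr13:115516976-115517417 had a fold enrichment of 22.6 at 30 h and 19.1 at 6 h, with main summits 9 bp apart. Scaled to the depth of the DMSO list its pileup came to 145 from either time, above the DMSO median. The region at chr1:147191396-147192083 had 20.7 at 30 h and 19.9 at 6 h, and was also the fourth farthest of all from a DMSO region, at 743160 bp. It had 1 summit at both times.

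The highest fold enrichment of any shared new region at 30 h, 26.4, was at chr11:92454003-92454703, against 15.1 at 6 h. This was the member of the 12 whose pileup relative to depth differed most between the times, at 1.76 for 30 h over 6 h. The region chr2:91139173-91139821 had 23.0 at 30 h and 17.2 at 6 h. Its 30 h pileup of 154 was the largest of the 12 and came to 191 at the depth of the DMSO list. A second region of that chromosome, from 91935937 to 91936486, had 22.2 at 30 h and 17.7 at 6 h.

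The widest of the 12 was at chr4:135502163-135503199, with 19.8 at 30 h and 19.7 at 6 h. The region chr1:3238911-3239658 had 19.9 at 30 h and 19.5 at 6 h, and its nearest DMSO region, 166528 bp away, was missing at both BRM014 times. The region at chr15:10489748-10490184 had 18.5 at 30 h and 20.3 at 6 h. Its pileups, 133 at 30 h and 106 at 6 h, came to 165 and 168 at that depth. This region therefore stood above the DMSO median from both times.

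The last 3 of the 12 were at chr12:70845085-70845506, chr14:120526708-120527369 and chr6:28085618-28086218. Their fold enrichments at 30 h were 22.4, 18.8 and 21.7, against 16.5, 19.1 and 16.4 at 6 h. Over the 12, the distance between the main summits of the 2 times ran from 3 to 29 bp. The gap to the nearest DMSO region ran from 7563 to 743160 bp. Relative to depth 5 of the 12 had the higher pileup at 30 h and the other 7 had it at 6 h.

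At the weak end stood regions of high local background. The lowest geometric mean was at chr2:152565513-152565757, with a fold enrichment of 2.98 at 30 h and 2.70 at 6 h, although its pileup was 172 at 30 h and 131 at 6 h. It lay 86 bp from a DMSO region. The next was at chr7:19889205-19889448, with 2.94 at both times and pileups of 113 at 30 h and 97 at 6 h. The others were at chr5:81449373-81449544, with 1.87 at 30 h and 5.35 at 6 h, and at chr13:81024013-81024186, with 2.83 at 30 h and 3.53 at 6 h, and at chr13:23622108-23622356, with 2.83 at 30 h and 4.04 at 6 h. Of these 5 weakest, 3 lay within 500 bp of a DMSO region. Fold enrichment is taken over local background and pileup is not, so the 2 rank the class differently.

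The intervals of the 2 times matched far more closely than the 1 bp that the rule asked for. The main summits of 30 h and 6 h lay a median of 12 bp apart, with quartiles of 5 and 22 bp. They were within 10 bp of each other in 524 regions, 45.3% (42.4 to 48.1%), and within 50 bp in 1074, 92.7% (91.1 to 94.1%). In the 23008 regions of all 3 lists the median was 11 bp with 47.9% within 10 bp (47.3 to 48.6%) and 90.4% within 50 bp (90 to 90.8%). Before matching on strength the shared new regions thus had the lower share at 10 bp and the higher share at 50 bp. At equal 30 h pileup the share within 50 bp was 92.8% in shared new regions and 87.9 ± 0.968% in regions of all 3 lists, a difference of 4.95 points (3.16 to 6.73). In deciles of -log10 q the difference was 8.07 points (6.20 to 9.93), and in deciles of fold enrichment 6.38 points (4.77 to 7.99). Within 10 bp the difference was 4.68 points at equal pileup (1.5 to 7.87), 6.33 points in deciles of -log10 q (3.15 to 9.50) and 1.78 points in deciles of fold enrichment (-1.20 to 4.76). At equal pileup 43.7% of regions of all 3 lists and 30.8% of shared new regions had at least 2 summits. The part of summit number in these differences was not tested.

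Coverage and width were also close. The 6 h region covered a median of 92.2% of the 30 h interval, and at least 50% of it in 1114 of 1158. Widths had a median of 452 bp at 30 h and 429 bp at 6 h. The region was the wider one at 30 h in 660 cases, 57.0% (54.1 to 59.8%), against 63.3% in regions of all 3 lists (62.6 to 63.9%). The same number of summits was found at both times in 847 shared new regions, 73.1% (70.5 to 75.6%), and in 61.6% of regions of all 3 lists (60.9 to 62.2%). At equal 30 h pileup the difference was 6.57 points (3.69 to 9.44), and in deciles of fold enrichment 11.2 points (8.52 to 13.9). At 30 h 69.3% of shared new regions and 38.3% of regions of all 3 lists had 1 summit. The part of this in the agreement was not tested. For the 699 shared new regions with 1 summit at both times, the 2 summits were never more than 160 bp apart.

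**Figure D1:**
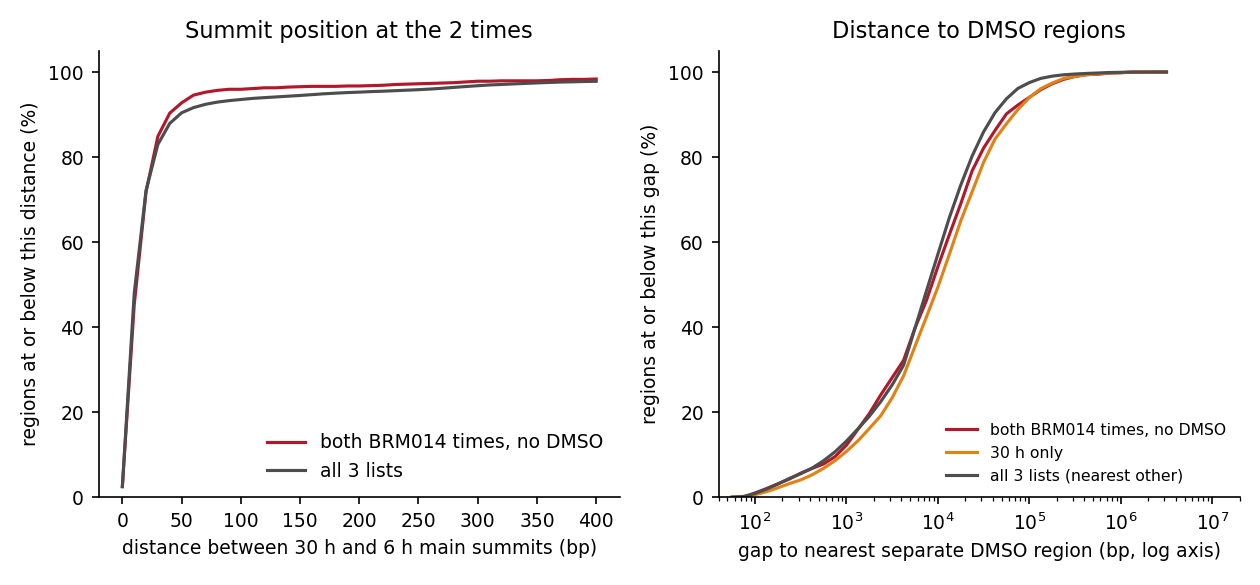
Left, share of regions (y, %) whose main summits of 30 h and 6 h lie within a given distance (x, bp), for shared new regions and for regions of all 3 lists. Right, share (y, %) with the nearest separate DMSO region within a given gap (x, bp, log axis), also for 30 h-only regions. On the left both lines pass 90% by 50 bp, and on the right the 3 lines run close together.

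A small subset did not share a summit. In 40 of the 1158 the main summits lay more than 150 bp apart. In 19 regions the overlapping 6 h region also overlapped a DMSO region, which the rule allowed, and 17 of the 40 were among these. Their 30 h intervals were 274 bp or less from a DMSO region, with a median gap of 114 bp. The one with the highest 6 h pileup, 399, was at chr11:69609306-69609538. It had a fold enrichment of 5.18 at 30 h, against 22.6 at 6 h in a region from 69608649 to 69609538 that overlaps the DMSO region nearby. Without the 19 the class held 1139 regions.

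The limits of the rule were of this kind too. The 3 shared new regions nearest to a DMSO region were 69 bp away at chr8:113464685-113465168, 82 bp away at chr10:24213660-24214043 and 82 bp away at the chromosome 11 site above. The smallest overlaps with a 6 h region were 74 bp, at the same chromosome 10 site, then 133 bp at chrX:74756921-74757440 and 145 bp at chr7:132634506-132634702. Just outside the rule, 3 regions of both treated lists overlapped a DMSO region by only 43 bp at chr6:49528987-49529306, by 69 bp at chr16:38793659-38793892 and by 103 bp at chr2:26883870-26884075. Their fold enrichments at 30 h were 5.05, 2.29 and 2.03, against 18.7, 10.1 and 18 at 6 h.

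The pileup relative to depth was similar at the 2 times. Pileup entered the calls, and the rule asked for a call at both times, so regions weak at either time were left out. The ratios below are therefore a description. Each summit pileup was divided by the lowest background of its list, which gave a median of 22.1 at 30 h and 19.3 at 6 h. The ratio of 30 h to 6 h had a median of 1.12 (1.10 to 1.14) and quartiles of 0.913 and 1.35. It was above 1 in 731 regions, 63.1% (60.3 to 65.9%). In regions of all 3 lists the median ratio was 1.18 (1.17 to 1.18) and 70.0% were above 1 (69.4 to 70.6%). With a score of 1000 required in every list, 272 regions were found. Their median ratio was 0.993 (0.960 to 1.05), so a median above 1 did not hold there. That setting also drops DMSO regions of lower score, so regions outside the 1158 count as new. Only 65 of the 1158 had a score of 1000 at both times.

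Most shared new regions, 898 or 77.6% (75.1 to 79.9%), had a ratio between 1/1.5 and 1.5. In 181 it was 1.5 or more, 15.6% (13.7 to 17.8%), and in 79 it was 1/1.5 or less, 6.82% (5.51 to 8.42%). Of the 19 regions whose 6 h interval also took in a DMSO region, 15 were among those 79, with a median ratio of 0.466 over the 19. At equal 30 h pileup the share above 1 was 63.0% in shared new regions and 54.6 ± 1.27% in regions of all 3 lists, a difference of 8.47 points (5.4 to 11.5). In deciles of fold enrichment that difference had the other sign, -3.43 points (-6.32 to -0.546), so no direction can be given for it. Across the 1158 regions the scaled pileups of 30 h and 6 h had a Spearman rho of 0.614, and across the 23008 of all 3 lists 0.882. Both values are descriptions, since the points share libraries and local background, and the shared new regions span a narrower range.

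**Figure D2:**
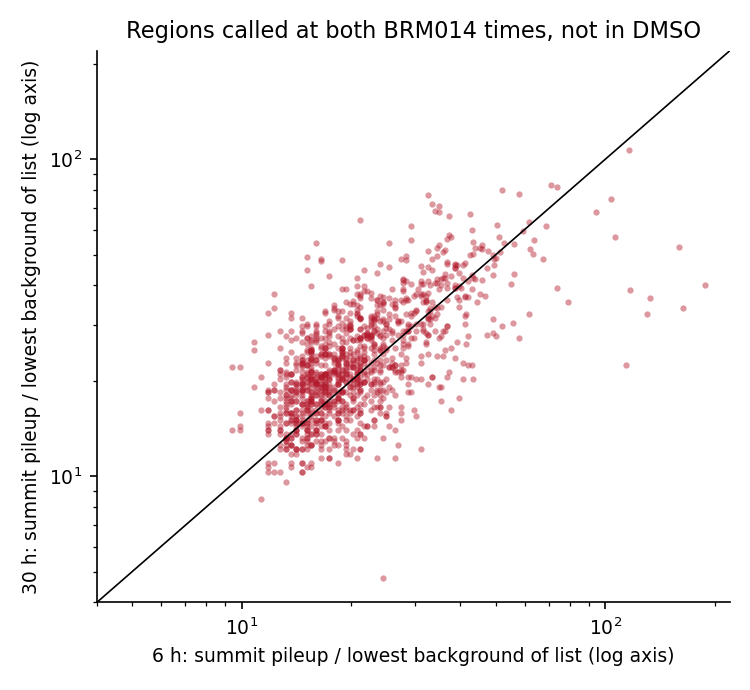
Summit pileup over the lowest background of the list at 30 h (y, log axis) against 6 h (x, log axis), 1 point for each of the 1158 shared new regions, with the line of equal values. Points gather on both sides of the line around medians of 22.1 at 30 h and 19.3 at 6 h, and of the 10 points above 100 at 6 h, 8 are regions whose 6 h interval also overlaps a DMSO region.

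Of the 6894 new regions at 30 h the 1158 make up 16.8%, and of the 31528 regions with a DMSO region 73.0% were also called at 6 h. These overlaps are what the rule used, so nothing is read from the 2 shares. By summit pileup, as a description, shared new regions made up 230 of 4737 regions at 30 h between 32 and 45.3, 4.86% (4.28 to 5.5%). Between pileups of 45.3 and 64 they were 401 of 5895, 6.80% (6.19 to 7.47%), the highest share of any bin with at least 20 of them. They were 297 of 6320 between 64 and 90.5, 4.70% (4.21 to 5.25%), and 141 of 5584 between 90.5 and 128, 2.52% (2.14 to 2.97%). Above a pileup of 256 a single one was left, among 3195 regions up to 362.

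Summit number and width, whose values the rule did not use, set the shared new regions between the 30 h-only regions and the regions of all 3 lists. A wider region has more room to overlap a 6 h region, and the part of this in the differences was not tested. Most had 1 summit, 803 at 30 h and 858 at 6 h. At 30 h 291 had 2 summits and 64 had at least 3, with 6 as the highest number. At least 2 summits were found in 30.7% of shared new regions (28.1 to 33.4%) and in 21.5% of 30 h-only regions (20.4 to 22.6%).

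At equal 30 h pileup the shares with at least 2 summits were 30.8% in shared new and 22.2 ± 1.28% in 30 h-only regions, a difference of 8.54 points (5.58 to 11.5). Against regions of all 3 lists, at 43.7 ± 1.34%, the difference was -13.0 points (-16.0 to -9.98). Between pileups of 90.5 and 128 the shares were 38.3% (30.7 to 46.5%) for shared new, 19.4% (15.3 to 24.3%) for 30 h-only and 57.7% (56.2 to 59.3%) for all 3 lists. Widths followed the same order there, with medians of 452, 346 and 663 bp. Of shared new regions 50.1% were at least as wide as their own median, against 37.9 ± 1.48% of 30 h-only regions at equal pileup, a difference of 12.2 points (8.90 to 15.4). That difference was 4.17 points in deciles of -log10 q (0.777 to 7.55) and 7.20 points in deciles of fold enrichment (3.94 to 10.5).

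**Figure D3:**
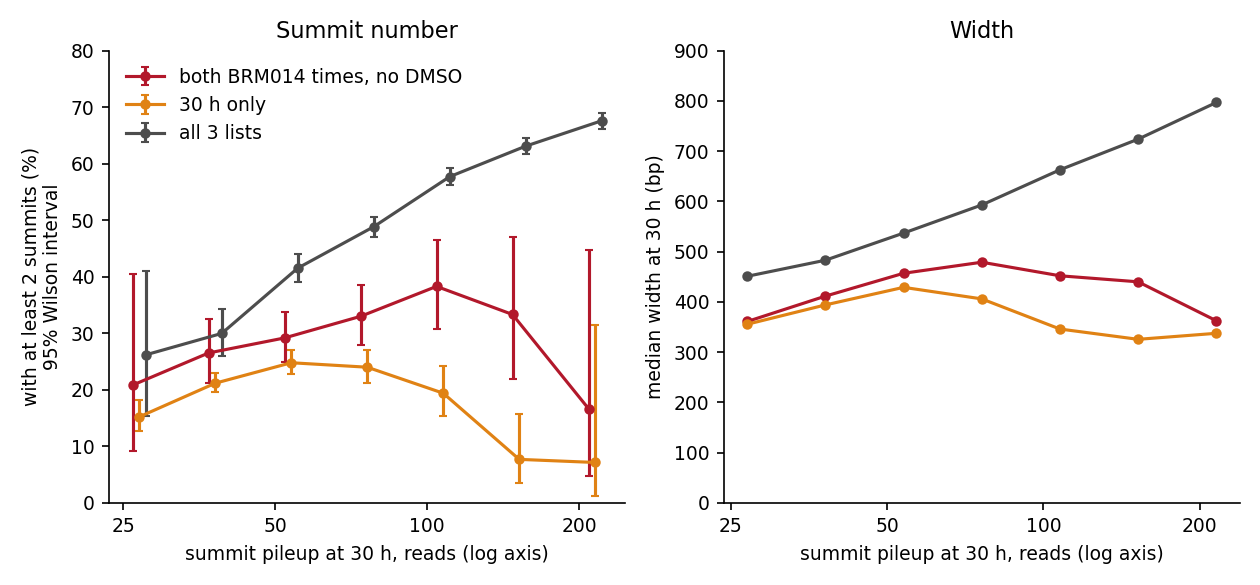
Share with at least 2 summits (left, y, %, 95% Wilson intervals) and median width at 30 h (right, y, bp) by summit pileup at 30 h (x, log axis), for shared new regions, 30 h-only regions and regions of all 3 lists. Shared new regions lie between the other 2 from a pileup of 32 to 256 in both panels.

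The 5 widest shared new regions had fold enrichments below the median of the class at 30 h. The first, at chr5:53603824-53605444, was 1621 bp wide with 6 summits at 30 h, against 934 bp and 2 summits at 6 h, and had a fold enrichment of 7.78 at 30 h and 7.03 at 6 h. The second, at chr19:36184462-36186042, was 1581 bp wide with 6 summits at 30 h, against 1365 bp and 5 summits at 6 h. Its pileup, 152 at 30 h and 78 at 6 h, was the highest of the 5 at both times. The other 3 were at chr2:155298367-155299916, chr14:37923621-37924919 and chr4:129054224-129055515, with fold enrichments from 8.27 to 9.79 at 30 h and from 6.65 to 13.6 at 6 h. The chromosome 4 region was the wider at 6 h, with 1475 bp, against 1292 bp at 30 h.

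The gap to the nearest DMSO region varied widely. It had a median of 8658 bp, with quartiles of 2508 and 22093 bp. The nearest DMSO region lay within 5 kb in 423 regions, 36.5% (33.8 to 39.3%), and within 20 kb in 842, 72.7% (70.1 to 75.2%). For 30 h-only regions the median gap was 10263 bp, with 32.2% within 5 kb (31.0 to 33.4%) and 67.8% within 20 kb (66.6 to 69.0%). Regions of all 3 lists had their nearest other DMSO region a median of 7892 bp away, with 36.1% within 5 kb (35.5 to 36.8%) and 76.3% within 20 kb (75.7 to 76.8%). Unmatched, the shared new regions thus lay between the other classes at 20 kb. At equal 30 h pileup they lay between them too, but in the opposite order. The shares were then 76.1 ± 1.12% for 30 h-only regions, 72.4% for shared new regions and 69.2 ± 1.33% for regions of all 3 lists. At equal 30 h pileup the share within 5 kb was 35.8% in shared new regions and 24.5 ± 1.11% in regions of all 3 lists, a difference of 11.4 points (8.37 to 14.4). The order of shared new and 30 h-only regions depended on how strength was matched. At equal 30 h pileup the shares within 5 kb were 35.8% and 47.1 ± 1.32%, a difference of -11.3 points (-14.3 to -8.17), but it was 3.73 points in deciles of -log10 q (0.461 to 7) and 11.9 points in deciles of fold enrichment (8.97 to 14.9). No direction is given for the difference from 30 h-only regions. None is given for that from regions of all 3 lists either. It was matched on pileup alone, and the unmatched shares, 36.5% and 36.1%, were close.

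As a description, distance went with local background within the class. Signal of another called region close by can enter the local background, and with it the fold enrichment. The part of this in the values below was not tested. The 142 regions within 1 kb of a DMSO region had a median fold enrichment of 6.73 at 30 h (5.95 to 7.39), a median pileup of 82 (78 to 88) and a local background 4.34 times the lowest of the list (3.39 to 5.07). The 69 regions more than 100 kb from a DMSO region had a median fold enrichment of 12.9 (12.1 to 14.3), a median pileup of 51 (46 to 54) and a local background equal to the lowest (1 to 1.05 times). Enrichment and pileup both entered the calling. As a description, the near regions were thus lower in enrichment but higher in pileup. They were also narrower, with a median of 370 bp (326 to 393 bp) against 494 bp (447 to 566 bp). The rule dropped any region that overlapped a DMSO region, which leaves less room for wide intervals close to one. The part of this in the widths was not tested. The intervals for at least 2 summits overlapped, with 26.1% near (19.5 to 33.8%) and 30.4% far (20.8 to 42.1%), as did those of the 30 h to 6 h ratio, with medians of 1.06 in each. The 947 regions between these distances had a higher median ratio, 1.127 (1.104 to 1.155), and 31.4% of them had at least 2 summits (28.5 to 34.4%).

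The most isolated of all was at chr16:54041715-54042512, 1200774 bp from any DMSO region, with a fold enrichment of 14.3 at 30 h and 12.2 at 6 h. It was followed by chr15:29862556-29863105, at 1158395 bp, with 11.7 at 30 h and 11.2 at 6 h, and chr12:19959766-19960053, at 861003 bp, with 13.2 at 30 h and 14.1 at 6 h. After the chromosome 1 region named among the strongest came chr3:76879070-76879365, at 619936 bp, with 11.0 at 30 h and 9.94 at 6 h. All 5 had a pileup of at least 40 at 30 h and at least 30 at 6 h, and summits that lay 3 to 88 bp apart.

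The nearest DMSO region of a shared new region was missing at 30 h for 282 of the 1158, 24.4% (22 to 26.9%), and at both BRM014 times for 250, 21.6% (19.3 to 24.1%). Over all DMSO regions 26.1% were missing at 30 h (25.6 to 26.5%) and 23.7% at both times (23.3 to 24.1%). Among the 142 shared new regions within 1 kb of a DMSO region, that region was missing at 30 h in 30, 21.1% (15.2 to 28.6%). For 30 h-only regions the nearest DMSO region was missing at 30 h in 22.1% (21.1 to 23.2%). At equal 30 h pileup the shares were 24.6% in shared new and 19.2 ± 1.15% in 30 h-only regions, a difference of 5.32 points (2.57 to 8.06), which shrank to 2.16 points in deciles of fold enrichment (-0.649 to 4.97). Against regions of all 3 lists, at 29.6 ± 1.31%, the difference at equal pileup had the other sign, -5.07 points (-7.89 to -2.25). Unmatched, the share in regions of all 3 lists was 24.25% (23.7 to 24.8%), close to that of the shared new regions. This comparison was matched on pileup alone, so no direction is given for it.

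Shared new regions were scattered over the genome. Their share of 30 h regions was highest on chromosome 19, with 57 of 1546, 3.69% (2.86 to 4.75%), chromosome 6, with 76 of 2082, 3.65% (2.93 to 4.54%), and chromosome 14, with 42 of 1159, 3.62% (2.69 to 4.86%). It was lowest on chromosome X, with 18 of 922, 1.95% (1.24 to 3.06%), and chromosome 17, with 38 of 1620, 2.35% (1.71 to 3.20%). The intervals of all 20 chromosomes held the share over the whole list, 3.01%, so no chromosome stood apart at this number of regions.

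**Figure D4:**
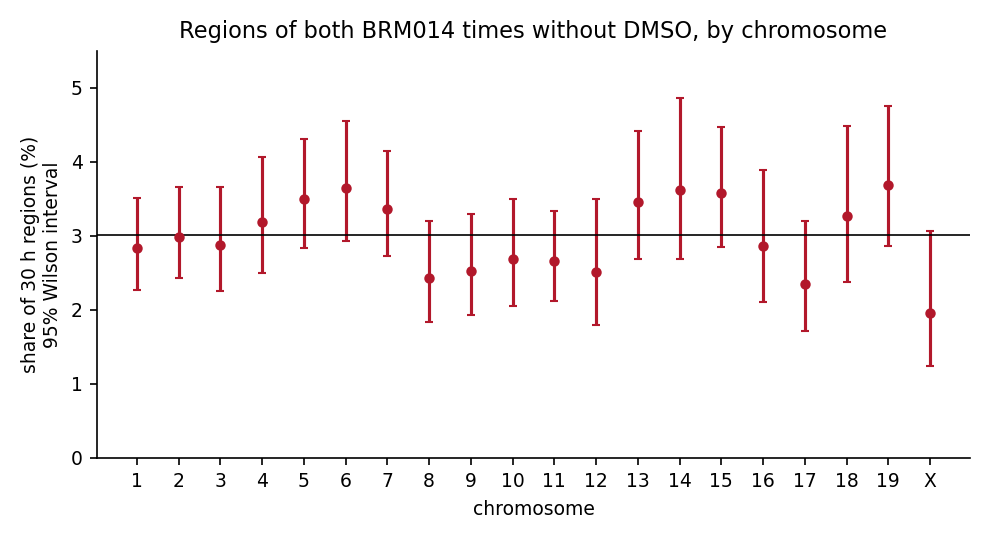
Shared new regions as a share of the 30 h regions of each chromosome (y, %) with 95% Wilson intervals, and the share over all chromosomes, 3.01%, as a line. The intervals of all 20 chromosomes cross the line, with chromosome 19 highest at 3.69% and chromosome X lowest at 1.95%.

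Windows of 1 Mb held few of them each. Of the 2290 windows with a 30 h region 803 held at least 1 shared new region, 548 held exactly 1 and 183 held 2. The most, 6, were found in 3 windows. In chr5:144000001-145000000 they were 6 of 42 regions, 14.3% (6.72 to 27.8%), and in chr6:128000001-129000000 they were 6 of 44, 13.6% (6.40 to 26.7%). In chr13:23000001-24000000 they were 6 of 62, 9.68% (4.51 to 19.5%), and accounted for 6 of the 8 new 30 h regions there. Windows with 5 were at chr5:136000001-137000000, of 52 regions, at chr1:137000001-138000000, of 62, and at chr19:5000001-6000000, of 93. All of these windows were picked for their high counts, and the intervals ignore that choice, so no local enrichment is read from them.

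The regions inside a window were of mixed strength. In the chromosome 13 window the strongest, from 23722599 to 23722987, had a fold enrichment of 23.6 at 30 h and 11.9 at 6 h, and the weakest, from 23622108 to 23622356, had 2.83 at 30 h and 4.04 at 6 h. In the chromosome 6 window fold enrichments ran from 2.93 to 12.6 at 30 h and from 3.98 to 9.99 at 6 h. In the chromosome 5 window from 144000001 they ran from 4.55 to 13.8 at 30 h and from 5.33 to 12.4 at 6 h, with gaps of 584 to 25497 bp to the nearest DMSO region.

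Close neighbours were rare. The median gap between shared new regions that follow each other on a chromosome was 1031993 bp, and 53 of the 1158 had another within 10 kb. There were 9 pairs with a gap of 1 kb or less. The closest, 84 bp apart at chr8:124534572-124535015 and from 124535100 to 124535518, had fold enrichments of 8.32 and 8.63 at 30 h, against 6.78 and 12.9 at 6 h. The first lay 54382 bp from the nearest DMSO region and the second 54910 bp. The next pairs were at chr12:96729778-96730558, chr1:178777241-178778065, chr10:40246877-40247748 and chr5:140634301-140635245, with gaps of 101 to 136 bp. The chromosome 10 pair was joined as 1 region at 6 h, from 40246888 to 40247733, and was the only place where 2 shared new regions met the same 6 h region.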

How the data were processed

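ATAC-seq was done on NMuMG cells treated with BRM014 for 30 h, BRM014 for 6 h or DMSO, 2 biological replicates each. The authors deposited 1 peak list per group, made from both replicates, per the series' design text and the labels, with MACS2 2.1.2 on mm9, per the submitters' processing notes. For the aligner, read filters, transposase shift and caller options the entry is "not given in the sources used here". Every deposited entry has a score (540 to 1000), a fold enrichment (a ratio over local background), a -log10 p-value, a -log10 q-value and a summit position. Values from different lists were not scaled to each other by the authors as far as the sources used here state.

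Entries that overlap were merged, with the highest value kept. A whole-number pileup and its background were solved from fold enrichment and -log10 p, with MACS2 defaults assumed, and gave back the -log10 p in the lists to within 0.001 in 100% of cases. The lowest background of a list, 2.72 at 30 h, 2.12 at 6 h and 3.37 for DMSO, was assumed to scale with its depth. Read totals per sample are unknown here. Shares at equal strength used bins of 30 h pileup, 2 per doubling, with at least 20 regions of each class, weighted to the shared new regions; ± and intervals of differences are 95% limits from binomial variances. The steps were checked on simulated data. Python 3.11.15, numpy 2.4.6, pandas 2.3.3 and scipy 1.17.1 were used.

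The members, comparisons and rules were chosen with earlier results of these data known. The regions named are the 12 strongest and 5 weakest by the geometric mean of fold enrichment, the 5 widest, the 5 farthest from DMSO regions, the 5 windows with the most (with ties), the 5 closest pairs and 3 at each limit of the rule. Genes and motifs planned for comparison were not used, because the annotation at hand is not of mm9.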

Additional observations from a re-analysis of the deposited data

How the results depend on the processing

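Values that moved beyond their interval, or counts beyond 1.5 times, are given here, with the main values in the order number of shared new regions (1158), share at or above the DMSO median (11.5%), ratio of 30 h to 6 h (1.12), then differences from 30 h-only regions in points for at least 2 summits (8.54), a DMSO region within 5 kb (-11.3) and a nearest DMSO region missing at 30 h (5.32). With a score of 1000 in every list there were 272 regions, 21.7% at the DMSO median, a ratio of 0.993 (0.960 to 1.05) and 13.2 points for summits. In this setting and the next the DMSO list was cut too, so regions outside the 1158 count as new. The DMSO median is then that of the cut list. With lists of equal length the values were 2662, 4.62%, 1.29, 15.8, -6.99 and 2.39 points; cutting the DMSO list to 25922 regions makes more regions new by construction. With at least 50% of the region covered 13.7% reached the DMSO median, and with median backgrounds for scaling the ratio was 1.15. The difference for DMSO regions was -5.00 points within 1 kb and -3.74 within 20 kb, and reversed to 3.73 points with deciles of -log10 q and 11.9 with deciles of fold enrichment; local background differs with distance, and its part in this was not tested. Deciles of fold enrichment also put the nearest missing region at 2.16 points. Deciles of fold enrichment, and the class without the 19 regions whose 6 h region overlaps a DMSO region, were chosen after seeing the data. Without the 19 the class gave 1139 regions and kept all 6 values within their intervals. Of 53 alternative values 36 stayed within limits, 15 moved and 2 reversed. For those without a reason given, the cause was not tested. No paired analysis was possible because the lists pool the replicates of a group, and leaving out single replicates could not be done either.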
